A study of Mus musculus with 12 samples.

Results

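The MHC class I pathway was followed here through 10 genes with known roles in it, out of the 48795 genes in the deposited table. These genes were chosen with earlier results of these data known, so the counts of members called below are a description. They were found by matching the Ensembl identifiers to symbols in the GENCODE vM21 annotation, and all 10 passed the filter on low values, as did 14856 genes in all. H2-K1 and H2-D1 encode the classical class I heavy chains, B2m the light chain, Tap1 and Tap2 the peptide transporter, Tapbp the loading factor tapasin, Psmb8, Psmb9 and Psmb10 the inducible proteasome subunits, and Nlrc5 a transcriptional activator of class I genes. RNA came from colonic organoids, epithelial structures grown in matrigel from colon crypts of C57BL/6 mice. The 4 groups of 3 libraries were AhR-deficient (KO) and wild-type (WT) organoids deprived of Wnt-3A during 3 days (the differentiated condition), and KO and WT organoids that kept Wnt-3A (the stem cell condition, whose medium also held R-spondin-1, Noggin and EGF). AhR, or aryl hydrocarbon receptor, switches genes on when it binds small molecules from food, gut microbes or pollutants. The allele, the cells in which it was deleted and the age of the mice are not given in the labels, and whether replicate libraries stem from different mice or cultures is not stated either. The p-values therefore measure the spread between these libraries, which may be technical.

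Nearly every nucleated cell shows samples of its own proteins to T cells on class I molecules. The proteasome cuts proteins into peptides, the TAP pump carries them into the endoplasmic reticulum, and tapasin helps to fit them onto a heavy chain paired with beta-2-microglobulin. Interferons raise most of these genes, and under interferon the inducible proteasome subunits take the place of the constitutive ones. In the gut the pathway lets intraepithelial lymphocytes and CD8+ T cells inspect epithelial cells.

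Libraries held 25.1 to 99.0 M reads assigned to genes, and the 10 genes took 0.208% to 0.309% of the normalised counts of a library. The Ahr count itself was higher in libraries labelled AhR-deficient (3824, 3356 and 3110 in KO differentiated organoids, against 2127, 2236 and 2260 in WT differentiated organoids, and 2503, 2831 and 2690 in KO stem organoids, against 1762, 1746 and 1909 in WT stem organoids). The allele is not given and the count covers the entire gene, so it is no check of the labels, and genotype below means the labelled one. Why the count was higher was not tested. Cyp1b1, a gene switched on by AhR, was lower in KO (log2 change -5.19 ± 0.23 in the differentiated and -4.35 ± 0.23 in the stem cell condition). All 11 colon epithelium markers were expressed. Fibroblast markers summed to 22036 in WT stem library 1 and 638 in KO stem library 3 and to at most 168 in the other libraries, so results were also computed without both. Of 15 immune cell markers, 6 were at 0 in all 12 libraries, among them Cd3e, Cd3g, Cd4, Nkg7 and Ncr1. The 15 together summed to between 956 and 4596 counts in a library, highest in KO stem organoids. The 7 interferon genes looked up summed to at most 1.19 counts in any library.

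Levels below are normalised counts per library. Compared between genes per kilobase of exon, the heavy and light chains stood far above the rest. In WT differentiated organoids H2-D1 averaged 21730 ± 448 counts per kb, H2-K1 21657 ± 1056 and B2m 21092 ± 890 (SD, n = 3 libraries), with overlapping ranges. Tapbp followed at 3826 ± 22.8, Psmb10 at 2298 ± 86.7, and Tap1 and Tap2 at 677 and 656 (ranges 663 to 700 and 637 to 678, which overlap). Psmb9 and Psmb8 lay at 279 ± 5.81 and 252 ± 35.8 counts per kb, likewise not separated, and Nlrc5 lowest at 8.92 ± 1.64. The heavy chain counts are less certain than the others, because related class I genes share sequence. Of all distinct stretches of 50 bases in their transcripts, 9.63% for H2-K1 and 12.8% for H2-D1 also occur in another gene, chiefly H2-Q genes and each other, against 0% for B2m, Nlrc5, Psmb9 and Psmb10. Tap1 and Psmb9 overlap by 212 bases on opposite strands, and Tapbp overlaps Zbtb22 (2105 to 2989 counts) on the same strand over 3422 bases. Whether counting used strand is not given in the sources used here.

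**Figure D1:**
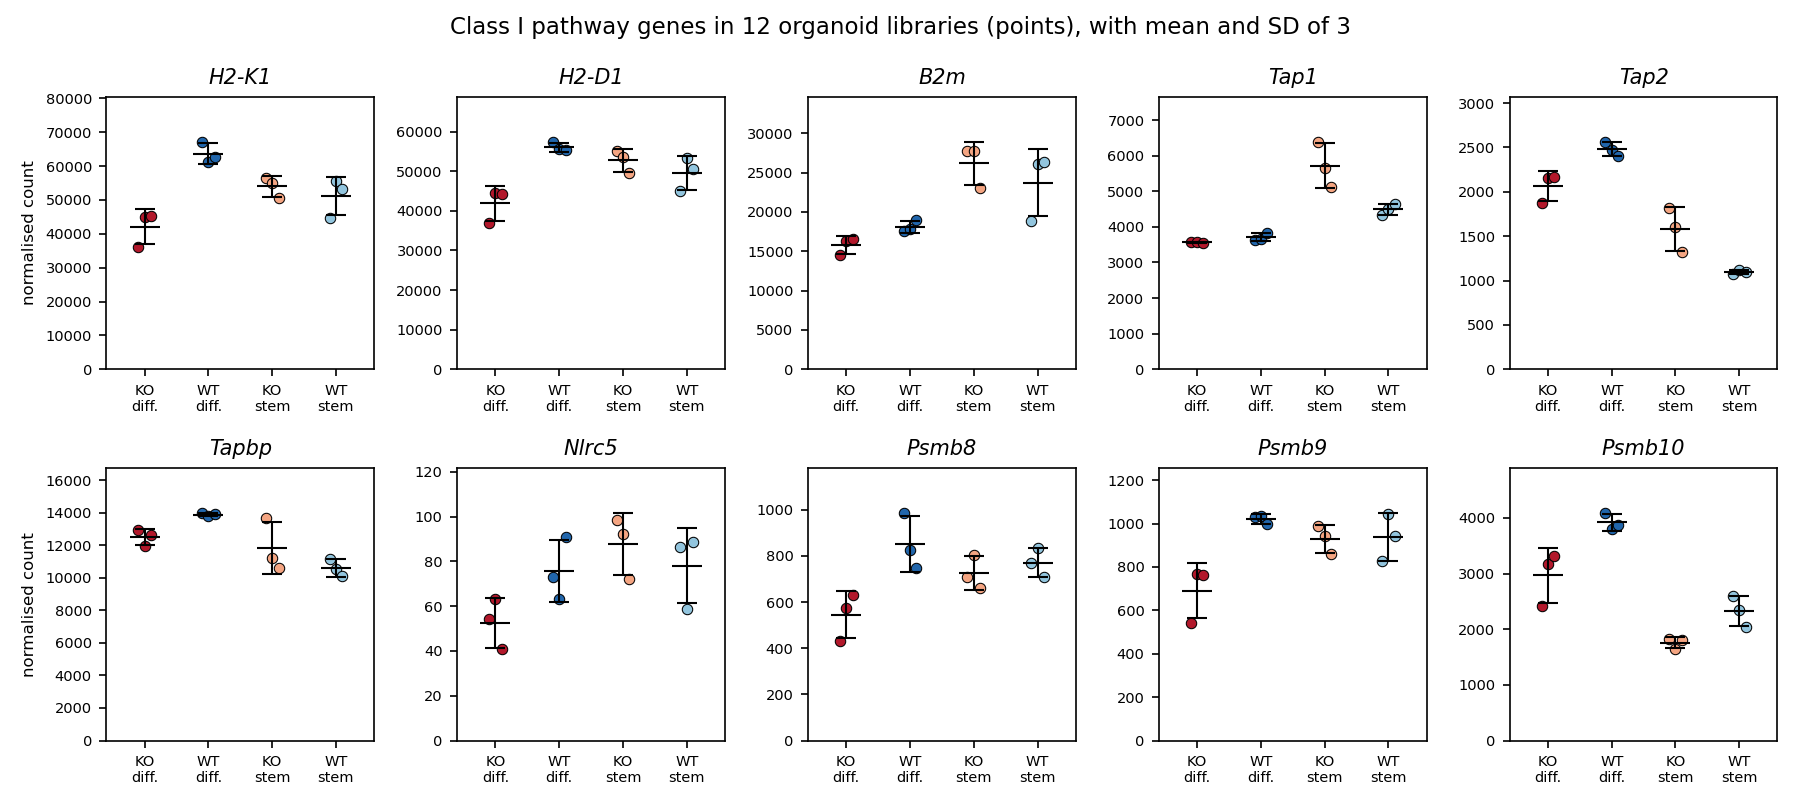
Normalised counts of the 10 genes in each library (points) with the mean and SD of 3 libraries, in KO and WT organoids of the differentiated condition (diff.) and then of the stem cell condition, each panel on its own linear axis from 0. H2-K1 lay between 36166 and 45206 in KO differentiated organoids and between 61163 and 67115 in WT differentiated organoids, whereas the stem cell groups overlapped.

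In the differentiated condition, class I genes were lower in KO than in WT. The heavy chains H2-K1 and H2-D1 and all 3 inducible proteasome subunits fell, by log2 changes between -0.65 and -0.41, whereas no member rose. A gene was called where limma, fitted to all 12 libraries, gave a p below 0.05 after Benjamini-Hochberg adjustment over the 14856 genes. By this test 5 of the 10 members were called lower and none higher, where 13.9% of all genes were called lower and 13.8% higher. The median over the 10 members was a log2 change of -0.42, against 0.02 over all genes tested. All 3 KO libraries lay below all 3 WT libraries for each of the 10 members, a pattern that 26.4% of all genes showed.

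The heavy chains carry the peptide to the cell surface. H2-K1 (ENSMUSG00000061232, chromosome 17, 33996017 to 34000347, minus strand, GRCm38) had 36166, 44965 and 45206 counts in KO differentiated libraries, against 67115, 61163 and 62610 in WT differentiated libraries. The groups were far apart, KO library 1 being the lowest of all 12, and the log2 change was -0.60 ± 0.10 (SE, adjusted p = 0.00263). H2-D1 (ENSMUSG00000073411, chromosome 17, 35262730 to 35267499, plus strand) had 36873, 44595 and 44167 counts in KO, against 57370, 55491 and 55267 in WT. The groups did not overlap, and the log2 change was -0.43 ± 0.09 (adjusted p = 0.00602). B2m (ENSMUSG00000060802, chromosome 2, 122147686 to 122153083, plus strand), the partner of every classical class I chain, had 14526, 16319 and 16530 counts in KO and 17536, 17881 and 19000 in WT. It did not pass the test (log2 change -0.20 ± 0.12, adjusted p = 0.242).

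The promoters of the chains are shown because H2-K1 and H2-D1 varied together over the 12 libraries (Pearson r of log2 counts 0.979, a description over libraries that share their groups). B2m followed them less closely (r = 0.413 with H2-K1 and 0.566 with H2-D1). The windows run from 250 bases before to 50 after the RefSeq start site (GRCm38.p6), and capitals mark matches, on either strand, to CCAAT (the NF-Y box), TGACG (the CREB/ATF core), GAAA followed after any 2 bases by another GAAA (a strict form of the interferon response element), TTCNNNGAA (a STAT site) or TNGCGTG (the AhR-ARNT core). H2-K1 is on the minus strand at chr17:34000298-34000597, from the first of 2 listed starts, H2-D1 on the plus strand at chr17:35262844-35263143, and B2m on the plus strand at chr2:122147437-122147736.
H2-K1: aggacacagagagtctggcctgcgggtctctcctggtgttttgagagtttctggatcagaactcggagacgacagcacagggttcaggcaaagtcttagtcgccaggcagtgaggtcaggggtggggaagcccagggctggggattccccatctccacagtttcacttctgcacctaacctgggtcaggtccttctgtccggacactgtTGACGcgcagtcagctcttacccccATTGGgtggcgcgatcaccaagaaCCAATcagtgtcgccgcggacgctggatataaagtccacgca
H2-D1: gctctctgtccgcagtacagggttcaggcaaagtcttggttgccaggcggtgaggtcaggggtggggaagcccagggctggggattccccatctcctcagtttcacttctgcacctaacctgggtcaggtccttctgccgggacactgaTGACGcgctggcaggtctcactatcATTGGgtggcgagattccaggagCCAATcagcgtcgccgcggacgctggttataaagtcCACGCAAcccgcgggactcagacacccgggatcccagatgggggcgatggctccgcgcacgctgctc
B2m: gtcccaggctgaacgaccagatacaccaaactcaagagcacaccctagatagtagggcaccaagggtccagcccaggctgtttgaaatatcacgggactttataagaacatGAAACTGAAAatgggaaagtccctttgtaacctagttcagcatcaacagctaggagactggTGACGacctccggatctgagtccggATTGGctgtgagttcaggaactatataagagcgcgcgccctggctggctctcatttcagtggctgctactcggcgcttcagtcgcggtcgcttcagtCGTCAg
The heavy chain windows share a run of 47 identical bases. All 3 windows hold CCAAT boxes and TGACG, B2m alone holds the strict interferon pattern (GAAACTGAAA, starting 139 bases before the start site), and H2-D1 alone of the 3 holds the AhR-ARNT core, 17 bases before it. Of the 32851 promoter windows of 300 bases in the table, 37.4% hold CCAAT, 20.8% TGACG, 3.44% the strict interferon pattern, 8.30% TTCNNNGAA and 5.07% TNGCGTG. Windows were read for 8 members (not for Tap2 and Nlrc5), and of these 6 held CCAAT, 5 TGACG, 1 the strict interferon pattern, 1 the STAT site (Psmb8) and 3 the AhR-ARNT core. Interferon elements that differ from the strict pattern were not searched for, so a window without it may hold one. The windows of Tap1 and Psmb9 share 275 bases, read from opposite strands. All their matches lie in these shared bases, so each such site was counted for both genes. Whether the members hold more matches than other windows was not tested. These are matches of letters and say nothing of binding.

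The inducible proteasome subunits were lower in KO differentiated organoids too. Psmb8 (ENSMUSG00000024338, chromosome 17, 34197721 to 34201454, plus strand), which replaces the constitutive subunit Psmb5, had 432, 574 and 629 counts in KO, against 985, 825 and 747 in WT. The log2 change was -0.65 ± 0.15 (adjusted p = 0.00895), with no overlap between the groups. Psmb9 (ENSMUSG00000096727, chromosome 17, 34181987 to 34187764, minus strand), the counterpart of Psmb6, had 544, 768 and 763 counts in KO and 1032, 1036 and 997 in WT. Its WT libraries were nearly level and all above KO (log2 change -0.58 ± 0.13, adjusted p = 0.00905). Psmb10 (ENSMUSG00000031897, chromosome 8, 105935735 to 105938444, minus strand), the counterpart of Psmb7, had 2410, 3180 and 3314 counts in KO and 4084, 3802 and 3868 in WT. Again no library overlapped (log2 change -0.41 ± 0.12, adjusted p = 0.0241). KO differentiated library 1 was the lowest library of its group for all 3 subunits.

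The transporter, tapasin and Nlrc5 did not pass the test in the differentiated condition. Tap1 (ENSMUSG00000037321, chromosome 17, 34187553 to 34197225, plus strand) had 3583, 3570 and 3542 counts in KO and 3629, 3666 and 3834 in WT, a gap that did not exceed the error (log2 change -0.06 ± 0.07, adjusted p = 0.583). Tap2 (ENSMUSG00000024339, chromosome 17, 34203527 to 34216321, plus strand) had 1874, 2160 and 2167 counts in KO and 2562, 2470 and 2408 in WT (log2 change -0.27 ± 0.10, adjusted p = 0.0739). The groups did not overlap for either gene. Tapbp (ENSMUSG00000024308, chromosome 17, 33915899 to 33929292, plus strand) had 12943, 11973 and 12600 counts in KO and 13958, 13794 and 13894 in WT (log2 change -0.15 ± 0.08, adjusted p = 0.194). Nlrc5 (ENSMUSG00000074151, chromosome 8, 94434356 to 94527272, plus strand) had 54.1, 63.1 and 40.9 counts in KO and 73.2, 63.3 and 90.9 in WT, where KO library 2 and WT library 2 nearly touched. It rested on 59 to 71 reads in KO and 40 to 96 reads in WT, so its log2 change of -0.52 ± 0.23 (adjusted p = 0.117) was imprecise.

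Over 24 other settings of the analysis, H2-K1, H2-D1, Psmb8 and Psmb9 were called lower in every one (highest adjusted p 0.0148, 0.0314, 0.0401 and 0.0326). Psmb10 was called in 20 of the 24 (adjusted p 0.00840 to 0.0781) and lost its call under quantile normalisation (0.0532) and without KO differentiated library 1 (log2 change -0.27, adjusted p = 0.0754), WT differentiated library 1 (0.0781) or WT differentiated library 3 (0.0664). Tap2 was called lower in 4 settings (adjusted p 0.0188 to 0.248 over the 24), among them those without KO stem library 1 (0.0413) or KO stem library 3 (0.0277), while B2m and Tapbp were called in 1 setting each and Tap1 and Nlrc5 in none. The colon epithelium markers moved with this comparison: 8 of 11 fell in KO, where 13.9% of all genes were called lower. Their summed counts were 1458380 to 1542320 in KO differentiated libraries and 1780230 to 1908560 in WT differentiated libraries. Their part in the change of the class I genes was not tested, and fewer cells of a type cannot be told apart from less RNA per cell in such bulk libraries.

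In the stem cell condition the picture was another: the 2 transporter genes were higher in KO, and no member was called lower. Of the 10 members, Tap1 and Tap2 rose and 8 did not pass the test, where 3.48% of all genes were called higher and 3.09% lower. The median over the members was a log2 change of 0.12, against -0.04 over all genes tested. Tap1 had 6384, 5648 and 5117 counts in KO stem libraries, against 4340, 4507 and 4651 in WT stem libraries. All KO libraries were above all WT libraries, as for 11.6% of all genes (log2 change 0.34 ± 0.07, adjusted p = 0.0186). Tap2 had 1822, 1606 and 1325 counts in KO and 1078, 1124 and 1091 in WT, again without overlap (log2 change 0.52 ± 0.10, adjusted p = 0.0136). For both genes KO library 1 was the highest and KO library 3 the lowest of the KO libraries.

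Of the other members, H2-K1 had 56500, 55008 and 50422 counts in KO stem libraries and 44781, 55474 and 53135 in WT stem libraries. The groups overlapped, and the log2 change of 0.08 had a 95% interval of -0.14 to 0.31 (adjusted p = 0.661). H2-D1 had 55078, 53580 and 49421 counts in KO and 44910, 53319 and 50453 in WT, overlapping as well (log2 change 0.09, interval -0.10 to 0.28). B2m had 27747, 27749 and 23053 counts in KO and 18862, 26055 and 26303 in WT (log2 change 0.15, adjusted p = 0.470). WT stem library 1, with its fibroblast markers, was the lowest of all 6 for these 3 genes, and without it the log2 change of H2-K1 was -0.01. The adjusted p-values of Tapbp, Nlrc5, Psmb8 and Psmb9 lay between 0.285 and 0.972, with overlapping groups. Psmb10 differed from these: it had 1829, 1645 and 1808 counts in KO and 2596, 2348 and 2045 in WT. All its KO libraries were below all WT libraries, as for 17.9% of all genes, but the change did not pass the test (log2 change -0.40 ± 0.12, adjusted p = 0.0679).

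The calls of Tap1 and Tap2 in the stem cell condition were sensitive to single libraries. Tap1 was called in 20 of 24 other settings (adjusted p 4.52e-04 to 0.12) and lost its call without KO stem library 1 (log2 change 0.26), KO stem library 2 (0.35) or WT stem library 2 (0.34), and in a fit of the 6 stem libraries alone. Tap2 was called in 21 (adjusted p 1.25e-04 to 0.0962) and lost its call without KO stem library 1 (0.41) or KO stem library 2 (0.50), and in that same fit. Without WT stem library 1 and KO stem library 3 both stayed called, and without WT stem library 1 alone their log2 changes were 0.31 and 0.50. Psmb10 was called lower in 4 of the 24 settings (adjusted p 0.0148 to 0.195), among them DESeq2 (0.0175) and the fits without WT stem library 3 (0.0484) or KO differentiated library 1 (0.0163). Colon epithelium markers were lower in KO here too, 3 of 11 being called, where 3.09% of all genes were called lower. Their sums were 720524 to 818189 in KO and 842623 to 909771 in WT stem libraries. The summed immune markers, mostly Cd68, were 4446 to 4596 in KO and 1709 to 3382 in WT stem libraries. Their part in these results was not tested.

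**Figure D2:**
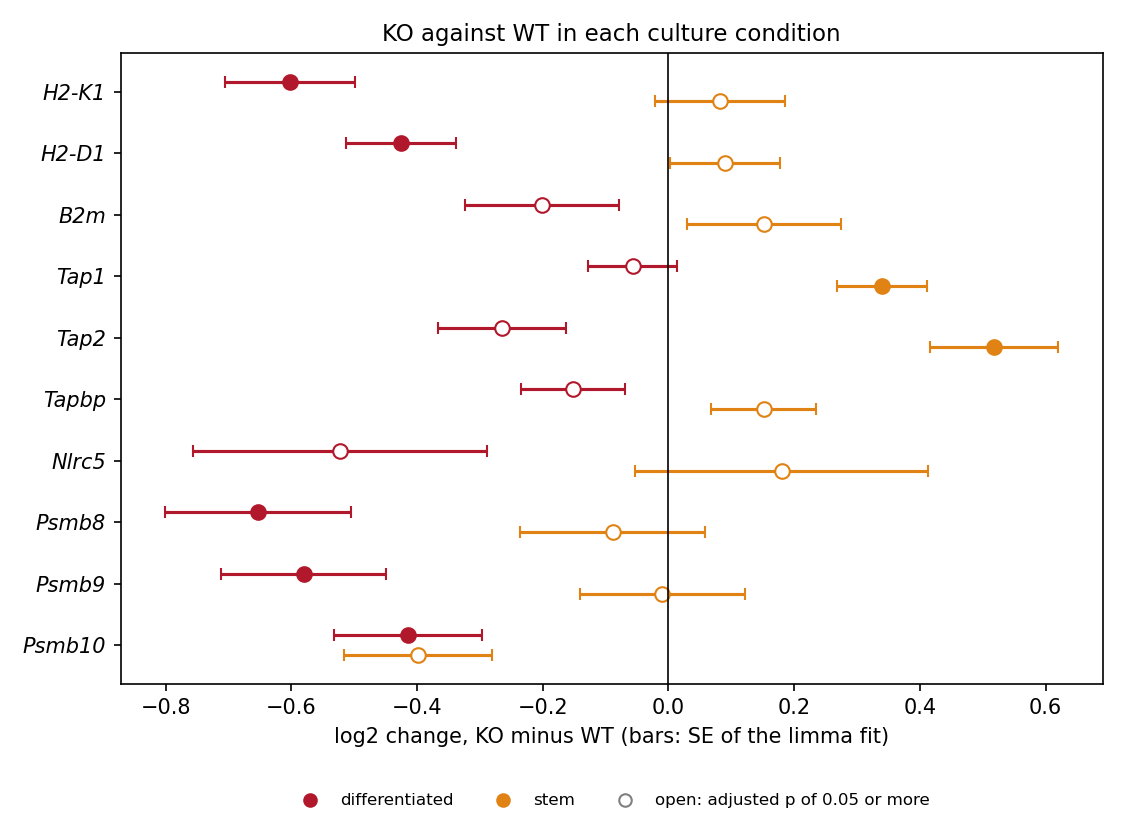
Log2 change of KO against WT for the 10 genes in the differentiated (red, upper) and stem cell (orange, lower) condition, with the SE of the limma fit, filled where the adjusted p was under 0.05. In the differentiated condition all 10 points lie below 0 and 5 are filled, in the stem cell condition 7 lie above 0, Tap1 and Tap2 are filled, and Psmb10 is at -0.41 and -0.40 in the 2 conditions.

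Whether the KO effect differed between the conditions was tested directly as the interaction of genotype and condition, that is, the KO minus WT difference in the differentiated condition less that in the stem cell condition. Of the 10 members, 4 were called lower and none higher, where 3.58% of all genes were called lower and 5.12% higher. The median was -0.54, against 0.04 over all genes tested. Tap2 had an interaction of -0.78 ± 0.14 (adjusted p = 0.0142), H2-K1 of -0.68 ± 0.15 (0.0206), H2-D1 of -0.52 ± 0.12 (0.0308) and Tap1 of -0.40 ± 0.10 (0.0361). In the separate comparisons H2-K1 and H2-D1 were called lower in KO without Wnt-3A, and Tap1 and Tap2 higher in KO with it. Differences between these genes were not tested. The interactions of Psmb9 (-0.57 ± 0.19, adjusted p = 0.0771), Psmb8 (-0.56 ± 0.21, 0.110), Nlrc5 (-0.70 ± 0.33, 0.197), B2m (-0.35 ± 0.17, 0.212) and Tapbp (-0.30 ± 0.12, 0.124) did not pass the test. For Psmb10 it was -0.02 with a 95% interval of -0.38 to 0.35.

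Tap2 kept its interaction call in all 24 other settings (highest adjusted p 0.0404). H2-K1 kept it in 20 of the 24 (3.47e-04 to 0.0545) and lost it without KO stem library 1 or 2 or WT differentiated library 1 or 3 (0.0532 to 0.0545). H2-D1 kept it in 16 (0.00158 to 0.0728) and lost it without those same libraries or WT differentiated library 2, without a filter, under quantile normalisation (-0.39) and with the replicate number as a block within genotype (0.0551). Tap1 kept it in 13 (0.00536 to 0.0948) and lost it without KO stem library 1 (-0.31) or 2, WT stem library 2 or any 1 of the 6 differentiated libraries, without a filter, and without WT stem library 1 and KO differentiated library 1 together. No setting turned a direction of these 4 genes. Averaged over both conditions, Psmb10 was lower in KO by a log2 change of -0.41 ± 0.08 (adjusted p = 0.00574) and was called in all 23 other settings. H2-K1 (-0.26 ± 0.07), Psmb8 (-0.37 ± 0.10) and Psmb9 (-0.30 ± 0.09) were called as well, so that 4 of 10 members were lower and none higher, where 13.0% of all genes were called lower and 10.6% higher. These 3 calls held in 15, 18 and 11 of the 23 settings. That of H2-K1 was lost without KO stem library 3, WT stem library 2 or 3 or WT differentiated library 1 or 3 (adjusted p 0.0503 to 0.0635), with TMM scaling (0.0566) and edgeR (0.0527), and under quantile normalisation, where its log2 change was -0.15 (0.145). That of Psmb8 was lost without KO stem library 1 or 3, WT stem library 2 or WT differentiated library 1 (0.0540 to 0.0631), and without WT stem library 1 and KO stem library 3 together (0.0579). That of Psmb9 was lost without a filter (0.0593), with TMM scaling (0.0714), with edgeR (0.0721) and in 9 of the 12 fits without 1 library (0.0510 to 0.0916), and held without WT stem library 1 or KO differentiated library 2 or 3. H2-D1 (-0.17 ± 0.06, adjusted p = 0.0726) was called lower in 4 of the 23 settings (0.0174 to 0.414), among them that without WT stem library 1 (0.0228). Tap1 and Tap2 were called higher in 6 and 2 of the 23 settings (lowest adjusted p 0.0139 and 0.0377). Among these was the fit without KO stem library 3 (0.0160 and 0.0386).

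Removal of Wnt-3A changed most of these genes, as it did most genes of the organoids, and it changed several of them differently in KO and WT. In KO, differentiated against stem cell condition, 7 of the 10 members fell and 2 rose, where 33.6% of all genes were called lower and 34.1% higher. In WT, 4 members rose and 2 fell, where 36.3% of all genes were called higher and 35.9% lower. The median over the members was -0.39 in KO and 0.16 in WT, against 0.01 over all genes tested in each. Both genotypes shared 4 calls in 1 direction: Psmb10 and Tap2 rose, and Tap1 and B2m fell.

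Tap2 and Tap1, whose proteins form the 2 parts of the same pump, moved in opposite directions. Tap2 rose by a log2 change of 0.39 ± 0.10 in KO (adjusted p = 0.00503). In WT differentiated organoids its mean was 2.26 times that of WT stem organoids (adjusted p = 9.30e-07). Tap1 fell by 0.68 ± 0.07 in KO (adjusted p = 6.58e-06) and fell by 0.28 ± 0.07 in WT (adjusted p = 0.00412). Per kilobase of exon, the count of Tap1 was 1.13 to 1.32 times that of Tap2 in KO differentiated libraries and 0.978 to 1.10 times in WT differentiated libraries. In the stem cell condition it was 2.42 to 2.67 times in KO and 2.77 to 2.94 times in WT, so the 2 conditions did not overlap. The genes share 25 stretches of 50 bases (0.442% of Tap1 and 0.655% of Tap2) and lie in a row on chromosome 17 with Psmb9 and Psmb8.

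The promoter of Tap1 is shown because it is also that of Psmb9, read from the other strand, and the 2 genes differed in which comparisons called them. The Tap1 window at chr17:34187306-34187605, plus strand, shares 275 bases with the Psmb9 window at chr17:34187281-34187580, minus strand. Capitals are as above, with a CCAAT box, a TGACG match and the AhR-ARNT core, the last 32 bases before the start of Tap1.
Tap1: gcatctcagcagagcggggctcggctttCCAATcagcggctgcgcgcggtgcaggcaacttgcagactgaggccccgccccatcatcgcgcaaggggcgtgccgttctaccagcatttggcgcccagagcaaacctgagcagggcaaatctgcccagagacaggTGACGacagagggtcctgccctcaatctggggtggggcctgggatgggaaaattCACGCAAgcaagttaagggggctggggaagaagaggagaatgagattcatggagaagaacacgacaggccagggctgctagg
In KO stem libraries Tap1 was higher than in WT, whereas Psmb9 had 987, 943 and 858 counts in KO and 827, 1045 and 944 in WT, with a log2 change of -0.01 ± 0.13. In the differentiated condition it was Psmb9 that fell in KO and Tap1 that did not pass the test. The difference between the 2 genes was not tested.

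Psmb10 rose in both genotypes, by a log2 change of 0.74 ± 0.12 in KO (adjusted p = 1.66e-04) and 0.76 ± 0.12 in WT (adjusted p = 1.17e-04). B2m fell by 0.73 ± 0.12 in KO (adjusted p = 2.58e-04) and fell by 0.37 ± 0.12 in WT (adjusted p = 0.0166). In WT its libraries overlapped, WT stem library 1 lying within the differentiated range. Tapbp was called in WT only (log2 change 0.39 ± 0.08, adjusted p = 0.00119), at 0.09 ± 0.08 in KO (adjusted p = 0.367), and was called in KO only without KO stem library 1 (0.20, adjusted p = 0.0156, over the 25 settings 0.0156 to 0.896). The difference between the genotypes did not pass the interaction test.

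H2-K1 was called in opposite directions in the genotypes. It fell in KO (log2 change -0.36 ± 0.10, adjusted p = 0.00846) and rose in WT (0.32 ± 0.10, adjusted p = 0.0153), and its interaction, given above, was called. H2-D1 fell in KO (-0.34 ± 0.09, adjusted p = 0.00521) and did not pass the test in WT (0.18 ± 0.09, adjusted p = 0.0834, 0.0393 to 0.268 over the 25 other settings, called without WT stem library 2 or KO differentiated library 1 at 0.0476 and 0.0393). Psmb9 fell in KO by a log2 change of -0.44 ± 0.13 (adjusted p = 0.0108), Psmb8 by -0.43 ± 0.15 (0.0234) and Nlrc5 by -0.73 ± 0.23 (0.0153), and none of the 3 passed the test in WT (0.13, 0.14 and -0.03). The call of H2-K1 in WT held in 22 of the 25 other settings. The settings that lost it included those without WT stem library 1 (0.23, adjusted p = 0.0592) or WT differentiated library 1 (0.0568). B2m lost its call in WT without WT stem library 2 or 3 or WT differentiated library 1 (0.0512 to 0.0704). In KO, Nlrc5 lost its call without KO stem library 1 or KO differentiated library 3 (0.0560 and 0.0673), and Psmb8 without KO stem library 2 (0.0903) or KO differentiated library 1 (-0.27, 0.0953), under quantile normalisation (0.0559) and without WT stem library 1 and KO differentiated library 1 together (0.0883). Over the 25 other settings the adjusted p lay between 0.00541 and 0.0592 for H2-K1 and 4.87e-05 and 0.0704 for B2m in WT, and between 0.00210 and 0.0673 for Nlrc5 and 0.0111 and 0.0953 for Psmb8 in KO.

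**Figure D3:**
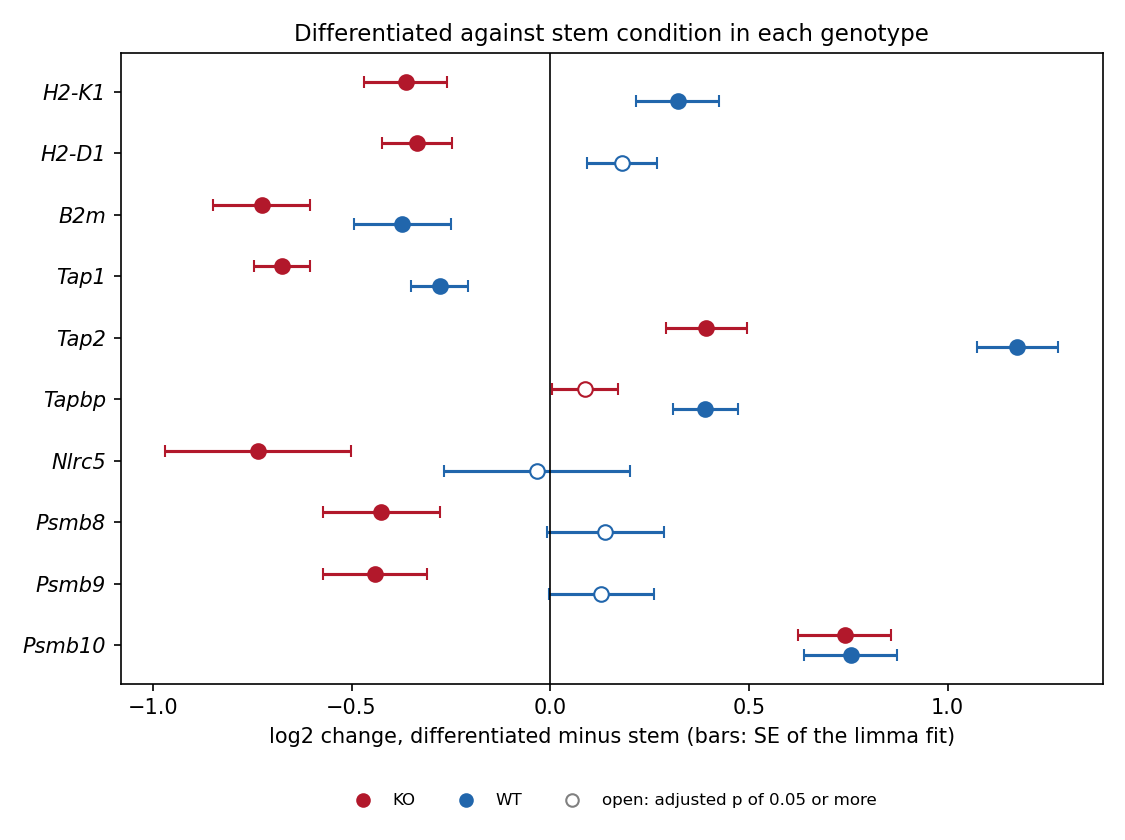
Log2 change of the differentiated against the stem cell condition for the 10 genes in KO (red, upper) and WT (blue, lower), with the SE of the limma fit, filled where the adjusted p was under 0.05. Psmb10 has nearly the same change in both genotypes (0.74 and 0.76), whereas H2-K1 lies at -0.36 in KO and 0.32 in WT.

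To set the inducible proteasome subunits against the constitutive ones they replace, the count of each was divided by that of its partner within a library, a measure that does not depend on library scaling. Psmb10 came to 44.4%, 58.9% and 64.1% of Psmb7 in KO differentiated libraries and 80.1%, 72.2% and 80.0% in WT differentiated libraries. In the stem cell condition it came to 25.9%, 21.9% and 25.2% in KO and 32.0%, 28.8% and 25.1% in WT. The ratio was higher in the differentiated condition in every library, with a mean log2 difference of 1.31 between conditions (exact two-sided permutation test within genotype over 400 arrangements, p = 0.005, the smallest it can give, 0.03 adjusted over 6 tests). It was lower in KO by a mean log2 difference of -0.36 over both conditions (exact permutation p = 0.015, adjusted 0.045), a call lost without KO stem library 2 (adjusted p = 0.06), WT stem library 2 (0.075), KO differentiated library 1 (0.06) or any 1 of the WT differentiated libraries (0.09 each).

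For Psmb8 against Psmb5 the mean was 10.6% ± 2.37 in KO differentiated and 17.6% ± 2.03 in WT differentiated libraries, and 11.2% ± 1.47 in KO stem and 11.2% ± 2.04 in WT stem libraries (SD, n = 3). For Psmb9 against Psmb6 it was 11.8% ± 2.68 in KO differentiated and 18.8% ± 0.647 in WT differentiated libraries, and 12.9% ± 0.946 in KO stem and 12.4% ± 2.46 in WT stem libraries. WT differentiated organoids stood above the other 3 groups for both. Neither ratio passed the test for genotype (log2 differences -0.37 and -0.32, exact permutation adjusted p = 0.143 for both) or for condition (0.28 and 0.23, adjusted p = 0.198 and 0.27). Without WT stem library 1 both genotype differences were called (-0.43 and -0.40, exact permutation adjusted p = 0.0375). Part of the movement with condition lay in the constitutive subunits: Psmb5, Psmb6 and Psmb7 fell in KO (log2 changes -0.32, -0.29 and -0.44) and in WT (-0.53, -0.49 and -0.68), and none was called between the genotypes in either condition.

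**Figure D4:**
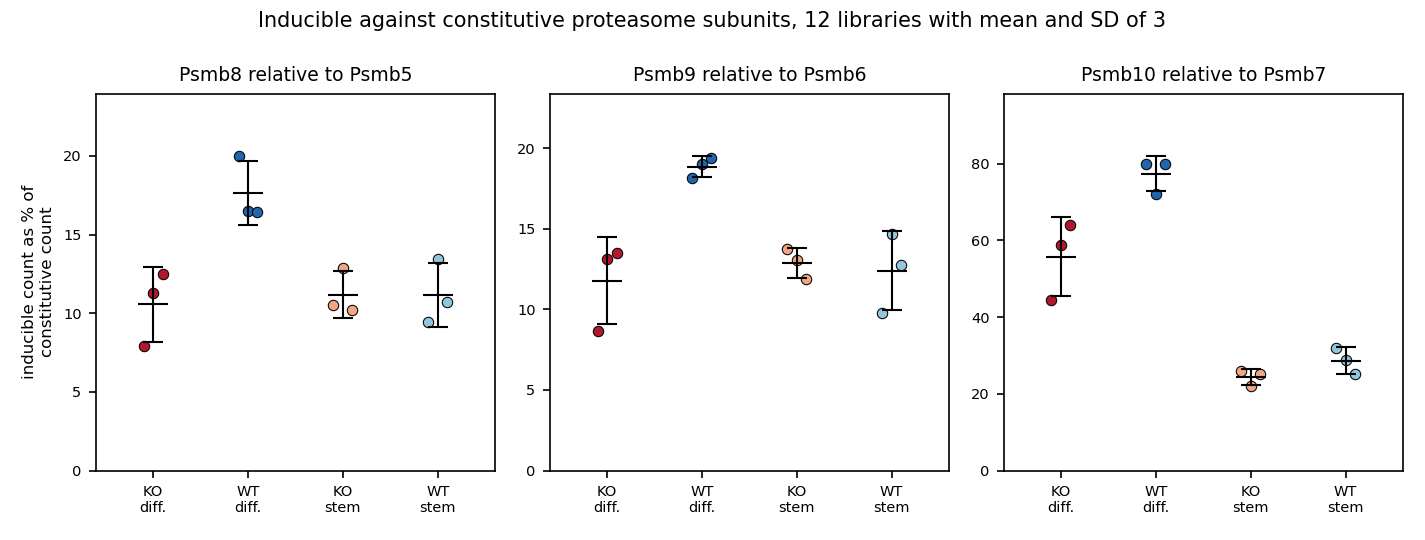
Count of each inducible proteasome subunit as a percentage of the count of its constitutive partner in each library (points), with the mean and SD of 3 libraries, on linear axes from 0. Psmb10 averages 55.8% of Psmb7 in KO and 77.4% in WT differentiated organoids, and 24.4% in KO and 28.6% in WT stem organoids.

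The rest of the machinery did not move as one with the members. For the list counts from here on, 13.8% of all genes were called higher and 13.9% lower in KO differentiated organoids. In KO stem organoids the shares were 3.48% and 3.09%, and in the interaction 5.12% and 3.58%. With differentiation 34.1% were called higher and 33.6% lower in KO, and 36.3% and 35.9% in WT. Of 16 other core subunits of the proteasome, none was called between KO and WT in the differentiated condition and 2 were lower in KO in the stem cell condition (Psma6 and Psma1, log2 changes -0.23 and -0.18), while all 16 fell with differentiation in both genotypes. Of the 4 proteasome activators none was called between genotypes in either condition. Averaged over both conditions, Psme1 (-0.12 ± 0.04, adjusted p = 0.0400) and Psme4 (-0.14 ± 0.05, 0.0460) were called lower in KO. On that average 2 of the 16 core subunits, Psma1 (-0.11) and Psma4 (-0.14), were lower too. None of either list was higher, where 10.6% of all genes were called higher and 13.0% lower. Psme1 and Psme2, subunits of the activator that works with the inducible proteasome, rose with differentiation in KO (0.62 and 0.23) and in WT (0.59 and 0.26), whereas Psme3, of the nuclear activator, fell (-0.37 and -0.64). Psme4, the last of the 4, was not called with differentiation in either genotype.

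Of 14 genes listed for peptide trimming and loading, not all of them of the endoplasmic reticulum, 1 rose and 2 fell in KO differentiated organoids (median 0.02). The chaperone Pdia3 rose (log2 change 0.20 ± 0.05), and the peptide transporter Abcb9 (-0.94 ± 0.22) and the intramembrane protease Sppl2a (-0.88 ± 0.09) fell. Abcb9 and Sppl2a belong to lysosomes and endosomes rather than to the endoplasmic reticulum. In the stem cell condition only Sppl2a was called (-0.34 ± 0.09). With differentiation Tapbpl, a relative of tapasin, rose in KO (1.37 ± 0.08) and WT (1.32 ± 0.08), and the chaperones Hspa5 (-0.86 in KO and -1.07 in WT), Calr (-0.76 and -0.89) and Canx (-0.41 and -0.58) fell. In each genotype 4 of the 14 rose and 8 fell.

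Of 20 other class I and class I-like chains, 2 rose and 6 fell in KO differentiated organoids, and 1 rose in KO stem organoids (Azgp1, 1.65 ± 0.31). H2-Q1 (-2.06 ± 0.49), H2-Q2 (-1.53 ± 0.30) and H2-Q10 (-1.52 ± 0.34) were among those that fell, and Cd1d1, a lipid-presenting chain, rose (1.25 ± 0.37). Not all H2-Q genes fell. Averaged over both conditions, H2-Q6 (0.69 ± 0.17, adjusted p = 0.0124) and H2-Q7 (0.58 ± 0.15, 0.0152) were called higher in KO, though in neither condition alone. H2-Q4 was called neither there nor in either condition. On that average 4 of the 20 chains were called higher and 7 lower, where 10.6% and 13.0% of all genes were. H2-Q counts are uncertain because these genes are close copies of each other and of the heavy chains. In the interaction 2 of the 20 were called, both lower. H2-T22, a chain read by gamma-delta T cells, had 3172, 3463 and 3392 counts in KO and 4319, 4295 and 4186 in WT differentiated libraries, against 4597, 4654 and 4472 in KO and 4273, 4143 and 4391 in WT stem libraries. KO lay below WT in the differentiated and above WT in the stem cell condition, without overlap, as 26.4% and 11.6% of all genes did in those conditions. The interaction was -0.45 ± 0.07 (adjusted p = 0.00980). H2-T23, which encodes the NK receptor ligand Qa-1, had an interaction of -0.41 ± 0.09 (adjusted p = 0.0264).

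Interferon-induced genes were mostly lower in KO in the differentiated and not in the stem cell condition. Of 29 antiviral genes 1 rose and 18 fell in KO differentiated organoids (median -0.42), 7 rose and none fell in KO stem organoids (median 0.35), and 19 had a lower and none a higher interaction (median -0.89). Without WT stem library 1 and KO stem library 3 these were 2 and 19, 11 and 0, and 0 and 19. Ifit1, which binds foreign RNA, had 859, 1833 and 1950 counts in KO and 4908, 4148 and 4759 in WT differentiated libraries, against 1974, 2046 and 1541 in KO and 916, 1212 and 1327 in WT stem libraries. KO was below WT in the differentiated and above it in the stem cell condition, without overlap, as for 26.4% and 11.6% of all genes. The interaction was -2.35 ± 0.37 (adjusted p = 0.0107).

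Of 20 interferon receptor and signalling genes, 8 fell and none rose in KO differentiated organoids and 2 rose in KO stem organoids (Socs3, 0.78 ± 0.17, and Ifnlr1, 0.41 ± 0.10). Irf1, an interferon-responsive activator of class I genes, had 6940, 7391 and 7557 counts in KO and 10168, 9438 and 9576 in WT differentiated libraries (log2 change -0.42 ± 0.07, adjusted p = 0.00231). Irf7 (-1.07 ± 0.20) and Stat2 (-0.87 ± 0.16), both of type I interferon signalling, fell as well, and with Irf9 and Il10rb they made up the 4 called in the interaction, all lower. Of 12 further factors that act at MHC promoters, Rela alone was called in the differentiated condition (0.36 ± 0.08) and Creb1 alone in the stem cell condition (-0.20 ± 0.05).

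Among 7 MHC class II genes with enough counts, 2 rose (H2-DMb1 and Cd74) and 1 fell (Ctss) in KO differentiated organoids, and 1 fell in KO stem organoids (Ctss). Of 10 other ligands of T and NK cells, 1 rose (Icam1, 1.61 ± 0.22) and 4 fell in KO differentiated organoids. The 4 were Btnl1, Btnl2, Btnl4 and Btnl6, of a butyrophilin-like family read by intraepithelial lymphocytes, with log2 changes between -2.53 and -1.73. In the stem cell condition Btnl4 alone was called (-1.92 ± 0.43). Of the marker lists of other cells, few genes had enough counts to be tested. Pdgfrb, 1 of 3 fibroblast markers tested, fell in KO in both conditions (-2.13 ± 0.33 differentiated, -2.12 ± 0.33 stem), and none of 3 immune and 2 endothelial markers was called between genotypes. Endothelial markers summed to at most 218 in any library.

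The 5 protein-coding genes most like the mean profile of the members over the 12 libraries (Pearson r of log2 counts, each member centred and scaled) were Oasl2 (0.961), Ifit3 (0.934), Cep19 (0.932), Tmem37 (0.929) and Taldo1 (0.914). The libraries share their groups, so this is a description without a p-value. Oasl2 and Ifit3 are interferon-induced antiviral genes, Cep19 encodes a centrosomal protein, Tmem37 a membrane protein and Taldo1 an enzyme of the pentose phosphate pathway. Oasl2 had 5167, 7623 and 6691 counts in KO and 11957, 11793 and 11686 in WT differentiated libraries, against 12152, 11858 and 9671 in KO and 8644, 9259 and 9825 in WT stem libraries. Like H2-K1, it was lowest in KO differentiated library 1. Among the members, r with H2-K1 was 0.979 for H2-D1, 0.936 for Psmb9 and 0.868 for Psmb8, and 0.197 for Tap1, 0.264 for Tap2 and 0.258 for Psmb10. Other pairs ran together (0.895 for B2m and Tap1, 0.891 for Tap2 and Tapbp) or against each other (-0.849 for Tap1 and Psmb10, -0.726 for B2m and Psmb10). The mean profile thus averages members with opposite patterns.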

How the data were processed

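The deposited table held 1 normalised count per gene and library, a signal that the authors made from gene counts; the submitters' processing notes name GRCm38, Bowtie2, RSEM 1.2.11 and DESeq2 1.18.1. Divided by 1 step per library, 100% of values came out as whole reads (tolerance 0.05 of a read), which were used as recovered reads. Genes reaching a normalised count of 10 in 3 or more libraries were tested on log2(normalised count + 1) with limma 3.58.1 (R 4.3.3), 4 group means and a mean-variance trend, two-sided. A log2 change on this scale slightly understates changes of low genes such as Nlrc5. The fit was tested on simulated data.

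Alternatives were pseudocounts of 0.5 and 5, no filter, a mean of at least 50, TMM scaling, quantile normalisation, recovered reads with edgeR 4.0.16 or DESeq2 1.42.0, a fit of only the groups compared, a replicate block, and leaving out libraries. Symbols and positions came from GENCODE vM21 (99.3% of identifiers), promoters from RefSeq. Gene lists of the pathway and of marker genes are each given once above. The members and lists were chosen with earlier results of these data known. The text names all members, up to 4 called genes per list, direction and comparison, the 5 most similar genes, Ahr and Cyp1b1, the list genes in part. Residuals of libraries with the same number correlated in KO (stem with differentiated, r = 0.286, 0.191 and 0.256) but not throughout in WT (0.107, 0.0552 and 0.145), so a block within genotype was added for the KO comparison of conditions, where it changed no member's call. Groups came from the sample titles. No library pair was a duplicate (chi-square per degree of freedom 9.46 to 113).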

Additional observations from a re-analysis of the deposited data

Results flagged for a closer look

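The difference between KO and WT was itself different in the 2 culture conditions for 4 of the 10 genes, by the interaction test across all genes. The interaction on the log2 scale was -0.78 for Tap2, -0.68 for H2-K1, -0.52 for H2-D1 and -0.40 for Tap1, each the KO minus WT difference in the differentiated less that in the stem cell condition. For Tap2 and Tap1 the stem cell part was a called rise in KO (0.52 and 0.34), and for H2-K1 and H2-D1 the differentiated part was a called fall in KO (-0.60 and -0.43). The fibroblast markers in WT stem library 1 and the lower colon epithelium markers of KO libraries stood beside these values, and their part in them was not tested. Groups of 3 libraries were too small for a search for outlying samples.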

How the results depend on the processing

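Of the results of single members, none changed direction past the threshold. Counts of called genes depended more on the libraries. For KO against WT in the stem cell condition 976 genes were called, against 1984 with DESeq2, 297 in a fit of only the groups compared, 1486 with the replicate block, 1497 without WT stem library 1 and KO stem library 3, 2664 without WT stem library 1 and KO differentiated library 1 (chosen after seeing the data), and 363 to 1414 without 1 library. The members called there were 2, against 0 in the fit of only the groups compared and 0 to 3 without 1 library. In the differentiated condition 4103 genes were called, and 2233 to 5699 without 1 library (members 5, and 4 to 6). Averaged over conditions, 3503 genes and 4 members were called, and 2519 to 5011 genes and 1 to 5 members without 1 library. For the interaction 1292 genes were called, against 750 without a filter, 2442 with DESeq2, 2141 with the replicate block and 342 to 1603 without 1 library, and members were 4, against 2 without a filter and 1 to 4 without 1 library. The ratio of Psmb10 to Psmb7 was lower in KO by -0.33 without WT stem library 1 and KO stem library 3 (exact permutation adjusted p = 0.075), and its rise with differentiation was 1.37 (adjusted p = 0.06). Without 1 library it ranged from -0.41 to -0.28 for genotype, while Psmb8 to Psmb5 ranged from -0.44 to -0.28 and Psmb9 to Psmb6 from -0.40 to -0.21. The cause of these shifts was not tested. Residual r between same-numbered KO and WT libraries was -0.0511 to 0.157 in the same condition and 0.0223 to 0.201 across conditions. Whether the replicate numbers mark a batch shared by the genotypes was not tested. With the replicate numbers as a block, no member's call changed other than those named above. Medians of all genes lay within 0.1 of each other under all scalings. Depth limited Nlrc5 (40 to 183 reads), not the other members.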
